A study of Mus musculus with 9 samples.

Results

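The genes described here encode the metallothioneins Mt1 and Mt2, the metal-sensing transcription factor Mtf1, the zinc exporter Slc30a1 (ZnT1) and the zinc importers Slc39a1 (Zip1) and Slc39a10 (Zip10). They were picked by name, with earlier results of these data known, as 6 of the 54432 genes in the table of estimated counts. All 6 passed the filter on low values (above 10 counts in no fewer than 3 of 9 libraries) and so were among the 12637 genes tested. The RNA came from RAW 264.7 cells, a mouse macrophage-like line grown in medium with fetal calf serum. The 3 control libraries came from untreated cells, 3 libraries came from cells given 1 mM VLDLsep (emulsion particles of the size of very low-density lipoproteins) for 6 h, and 3 came from cells given 1 mM CHYLsep (emulsion particles of chylomicron size) for 6 h. Both particles were made from sunflower oil with sodium caseinate as the emulsifier, and the libraries held no group given the emulsifier alone, so the oil and the emulsifier cannot be told apart in what follows. Each library was a pool of the samples of 1 condition from 1 experiment. The question the comparisons address is how the RNA of metal-handling genes changed when macrophages were loaded with triglyceride-rich particles, and whether the size of the particle mattered.

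Metallothioneins are small cysteine-rich proteins that bind zinc and copper in the cytosol. When free zinc rises, the zinc finger protein MTF1 binds metal response elements in promoters and switches on metallothionein genes and Slc30a1, whose product moves zinc out of the cytosol. Importers of the Zip family, such as Zip1 and Zip10, carry zinc in the opposite direction. Metallothionein genes are also known to respond to oxidative stress, glucocorticoids and inflammatory cytokines, and in macrophages they are part of the response to microbes. In cultured cells pooled as here, fewer responding cells and less RNA per cell cannot be told apart.

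Because MTF1 acts through a short DNA motif, the promoters of the 6 genes were searched for its core. RefSeq windows (GRCm38.p6) from 250 bases before to 50 after the start site matched all 6 genes, with 2 windows for Slc39a10. The core was searched as TGCACNC and TGCGCNC on both strands. Mt2 held 4 matches, Mt1 held 3 and Slc30a1 held 2, while the windows of Mtf1, Slc39a1 and Slc39a10 held 0. Of all 32851 windows, 25.7% held at least 1 match, 7.11% at least 2 and 1.97% at least 3. The matches are printed on the gene's strand with 10 bases on each side and the core in capitals, because the 3 genes that hold them are the metallothioneins and the exporter. Before and after the start refer to the window's own start site, at 94179089 for Mt1 and 94172618 for Mt2. Mt1 has 3 annotated transcripts and 1 window, so other start sites of Mt1 may not be covered. Its matches after this start may lie before another start. The Mt2 gene as annotated by GENCODE M21 starts later, at 94172664, so all of its matches lie before that start.
Mt1, 23 bases before the start, chr8:94179056-94179082, plus strand: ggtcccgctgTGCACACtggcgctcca
Mt1, after the start, chr8:94179081-94179107, plus strand: cagggagctcTGCACTCcgcccgaaaa
Mt1, after the start, chr8:94179099-94179125, plus strand: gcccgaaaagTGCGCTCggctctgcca
Mt2, before the start, chr8:94172385-94172411, plus strand: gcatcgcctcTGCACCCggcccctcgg
Mt2, before the start, chr8:94172480-94172506, plus strand: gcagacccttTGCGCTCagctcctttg
Mt2, before the start, core on the minus strand, chr8:94172558-94172584: gggggagggcGTGTGCAggctctgtcc
Mt2, after the start, core on the minus strand, chr8:94172612-94172638: aattcgggtcGTGCGCAggcccagggg
Slc30a1, before the start, core on the minus strand, chr1:191906728-191906754: cgggggttccGAGTGCAaagcaaagtt
Slc30a1, after the start, core on the minus strand, chr1:191906801-191906827: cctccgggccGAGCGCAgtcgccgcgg

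A further motif, the core of the antioxidant response element bound by NRF2, was searched as TGACNNNGC on both strands. It was present in 12.4% of all windows. Mt2, Slc30a1 and Slc39a1 held 1 match each, and the windows of the other 3 genes held 0.
Mt2, before the start, chr8:94172529-94172557, plus strand: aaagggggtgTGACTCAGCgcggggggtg
Slc30a1, before the start, core on the minus strand, chr1:191906689-191906717: gggcaccgggGCCTTGTCAcgctcgggtc
Slc39a1, before the start, core on the minus strand, chr3:90248119-90248147: ctcccactgaGCTCAGTCAttggcagcct
None of these matches overlapped a match of the metal response core. A match describes the letters of the window and was not tested for binding. A window without one says nothing about sites outside it, whether more distant or near another start site of the same gene.

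By the GENCODE M21 annotation of GRCm38, Mt1 (ENSMUSG00000031765) lies on chromosome 8 from 94179082 to 94180327. Mt2 (ENSMUSG00000031762) lies from 94172664 to 94173568 on the same strand, 5513 bases upstream of Mt1. Both belong to a cluster of 43131 bases that also holds Mt3 and Mt4, the metallothioneins known from brain and stratified epithelium, and these had 0 counts in all 9 libraries, which allows a level of up to 0.126 to 0.137 cpm (counts per 1000000 counts) per library, counting error only. Mtf1 (ENSMUSG00000028890) lies on chromosome 4 from 124802104 to 124849800, and Slc39a1 (ENSMUSG00000052310) on chromosome 3 from 90248172 to 90253612. Slc30a1 (ENSMUSG00000037434) and Slc39a10 (ENSMUSG00000025986) both lie on chromosome 1, from 191906767 to 191913247 and from 46807544 to 46892852.
The estimated counts covered whole genes, exons and untranslated regions together. Whether they were counted by strand is not given in the sources used here, so reads of a gene and of one that overlaps it on the opposite strand may be mixed. The overlapping antisense genes Gm45774 at Mt2 and 1700034H15Rik at Slc30a1 stayed at 1.46 cpm or below and 0.75 cpm or below, against 74.2 cpm or more for Mt2 and 29.9 cpm or more for Slc30a1. From these low levels both rose with VLDL-sized particles, Gm45774 by 2.40 (limma adjusted p = 0.0090) and 1700034H15Rik by 1.13 (limma adjusted p = 0.043) on the log2 scale, and neither passed with CHYL-sized particles (adjusted p = 0.087 and 0.55). The end of Mtf1 overlaps 721 bases of 1110065P20Rik, which ranged from 8.94 to 12.1 cpm and did not pass the test in either comparison with control.

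Library depth ranged from 22393893 to 22856792 estimated counts, so even the lowest count of any of the 6 genes, 382 for Slc39a10, was far above the floor of 3 counts. The libraries of replicate 3 stood apart from the others in each group. The chi-square per gene between 2 libraries of a group was 11.9 to 15.1 when one of them was replicate 3 and 3.38 to 5.02 between replicates 1 and 2, so none was a duplicate. Results are therefore given with and without the 3 libraries of replicate 3. Macrophage markers fitted the label, with all 8 tested and a summed level of 6848 to 6949 cpm in control cells. The summed level was lower with particles, 6143 to 6335 cpm (VLDL-sized) and 6317 to 6516 cpm (CHYL-sized). The 8 markers of other cell types summed to at most 1.29 cpm, with Epcam, Krt5 and Alb at 0 in every library.

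After VLDL-sized particles, both metallothioneins, the exporter and the metal sensor rose. The rise was 1.79-fold for Mt1, 2.19-fold for Mt2, 2.26-fold for Slc30a1 and 1.35-fold for Mtf1. The importers Slc39a1 and Slc39a10 did not pass the test, which was limma-voom over all genes with a Benjamini-Hochberg adjusted p under 0.05. In all, 4 of the 6 genes rose and 0 fell, against a background of 35.6% of the 12637 genes called, 17.8% higher and 17.9% lower. Since the 6 genes were chosen with earlier results known, setting them beside this background is not an independent test. The median log2 fold change was 0.64 over the 6 genes and 0.00 over all genes tested.

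**Figure D1:**
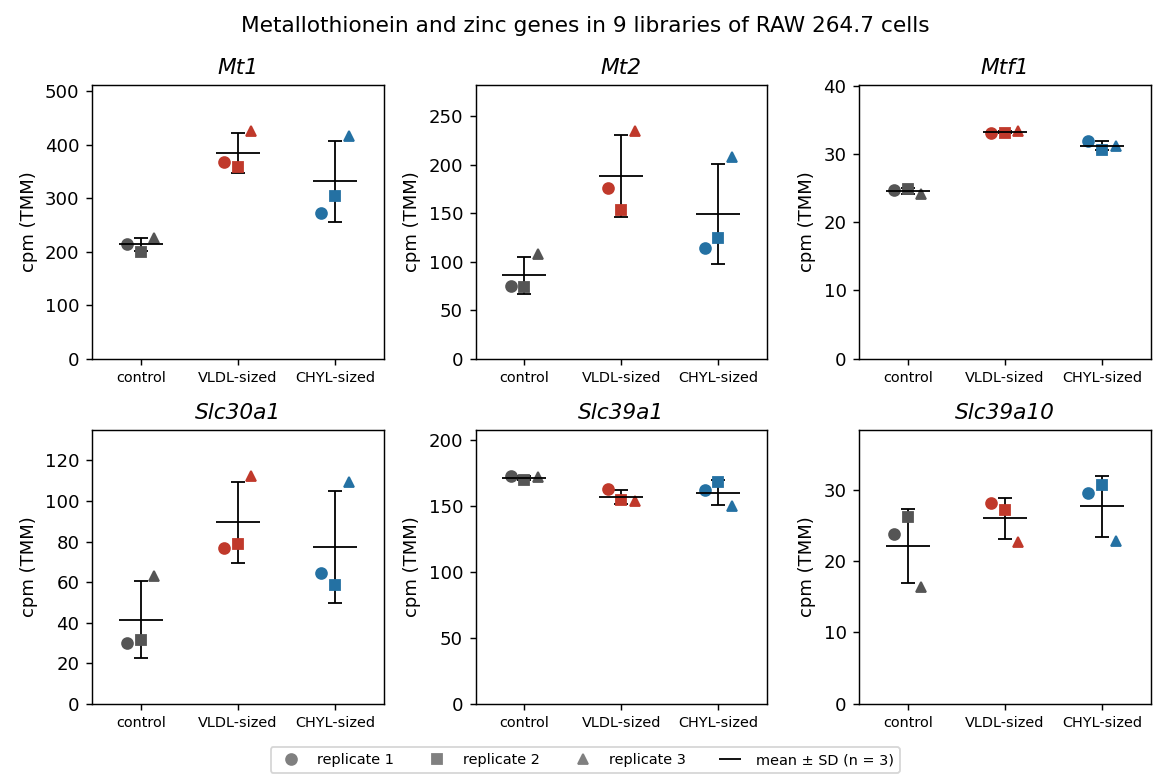
Level of each gene in each library, in cpm on TMM-adjusted library sizes, by group, with bars for the mean ± SD of 3 libraries. Mt1, Mt2 and Mtf1 (higher) and Slc39a1 (lower) show no overlap between control and particle libraries. Of all genes tested, 47.4% (VLDL-sized) and 41.7% (CHYL-sized) had groups without overlap. Replicate 3 (triangles) is the highest library of its group for Mt1, Mt2 and Slc30a1 and the lowest for Slc39a10.

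Mt1 was at 215, 200.2 and 226 cpm in control replicates 1, 2 and 3, and at 367, 358 and 427 cpm after VLDL-sized particles. Every treated library was above every control library. Groups without overlap were seen for 47.4% of all genes tested, and in the upward direction for 23.7%. The mean was 214 ± 12.9 cpm (SD, n = 3) before and 384 ± 37.4 cpm (SD, n = 3) with particles. On the log2 scale the change was 0.84 (SE 0.13, 95% CI 0.55 to 1.14, limma adjusted p = 0.00065).
Mt2, the lower of the metallothioneins by counts, was at 74.9, 74.2 and 108 cpm in control cells and at 176, 153 and 235 cpm after VLDL-sized particles. The groups did not overlap, and replicate 3 was the highest library in both. On the log2 scale Mt2 changed by 1.13 (SE 0.23, 95% CI 0.61 to 1.65, limma adjusted p = 0.0035).
In same-numbered libraries the log2 ratio of Mt2 was 1.23, 1.04 and 1.12, and that of Mt1 was 0.77, 0.84 and 0.92. Both genes were higher with particles in each same-numbered pair, though the labels do not say that equal numbers mark the same experiment.

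Slc30a1, the zinc exporter of the plasma membrane, was at 29.9, 31.3 and 63.2 cpm in control cells and at 77.0, 78.9 and 112 cpm after VLDL-sized particles. The groups did not overlap, but control replicate 3 lay close to the lowest treated libraries. On the log2 scale the change was 1.18 (SE 0.30, 95% CI 0.52 to 1.84, limma adjusted p = 0.011). Without control replicate 1 it was 0.99 and narrowly missed the threshold (limma adjusted p = 0.0502). The same-number log2 ratios were 1.36, 1.34 and 0.83, lowest in replicate 3.
Mtf1, the sensor, differed little between replicates. It was at 24.7, 24.9 and 24.1 cpm in control cells and at 33.1, 33.1 and 33.5 cpm after VLDL-sized particles. Its change was the smallest of the 4 that rose but had the smallest error, a log2 fold change of 0.43 (SE 0.05, 95% CI 0.32 to 0.55, limma adjusted p = 0.00014).

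Neither importer passed the test. Slc39a1 was at 172, 169 and 172 cpm in control cells and at 163, 154 and 153 cpm after VLDL-sized particles, so the treated libraries were all lower. The log2 fold change was -0.13 (95% CI -0.24 to -0.01, limma adjusted p = 0.085), and 23.7% of genes had groups without overlap in the downward direction. With the replicate number as a block the estimate was -0.13 and passed (limma adjusted p = 0.031), and with library size as the only scaling it was -0.22 (limma adjusted p = 0.011), where the median of all genes was -0.09 and 31.3% of the genes called were higher.
Slc39a10 was at 23.8, 26.3 and 16.4 cpm in control cells and at 28.1, 27.1 and 22.7 cpm after VLDL-sized particles. The groups overlapped, with replicate 3 the lowest library in each. The log2 fold change was 0.25 (95% CI -0.13 to 0.63, limma adjusted p = 0.29), and with the replicate block it was 0.24 and passed (limma adjusted p = 0.016). In that blocked fit 47.9% of all genes were called.

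After CHYL-sized particles the same 4 genes rose, with smaller estimates than after VLDL-sized particles. The rise was 1.53-fold for Mt1, 1.70-fold for Mt2, 1.91-fold for Slc30a1 and 1.27-fold for Mtf1, and 0 of the 6 genes fell. Of all genes tested 25.7% were called, 12.7% higher and 13.0% lower. The median log2 fold change of the 6 genes was 0.48, against 0.00 for all genes tested. The 3 control libraries are shared with the comparison of VLDL-sized particles, so the 2 sets of values are not independent.

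**Figure D2:**
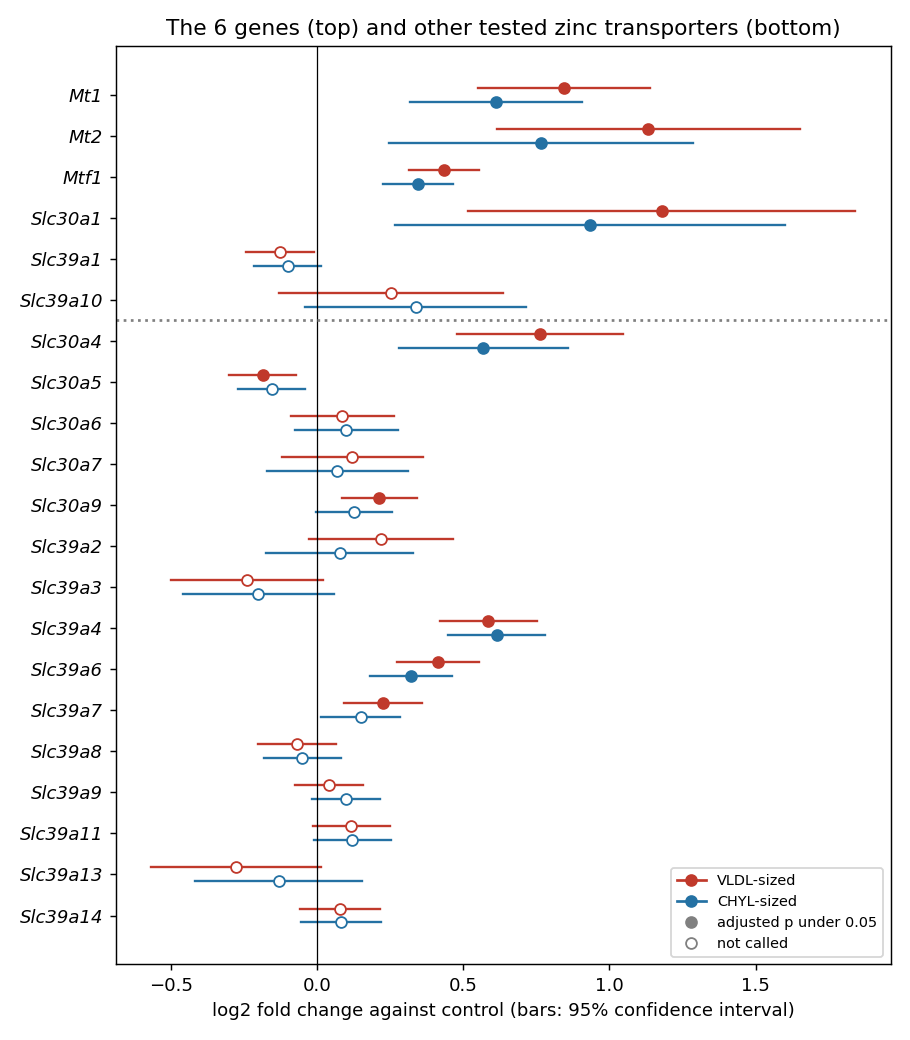
Log2 fold change against control for the 6 genes (above the dotted line) and the 15 other zinc transporters tested, for each particle, with bars for the 95% confidence interval and filled points for an adjusted p under 0.05. Mt1, Mt2, Mtf1 and Slc30a1 are filled for both particles, and of the other transporters Slc30a4, Slc39a4 and Slc39a6 are.

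Mt1 was at 273, 305 and 417 cpm after CHYL-sized particles, all above the highest control library at 226 cpm. The log2 fold change was 0.61 (SE 0.13, 95% CI 0.32 to 0.91, limma adjusted p = 0.0068). Groups without overlap were seen for 41.7% of genes, and in the upward direction for 20.8%.
Mt2 was at 114, 124 and 208 cpm, with the lowest of these just above control replicate 3 at 108 cpm. Its log2 fold change was 0.77 (SE 0.24, 95% CI 0.25 to 1.29, limma adjusted p = 0.036). The same-number log2 ratios were 0.61, 0.74 and 0.95. From replicates 1 and 2 alone, without replicate 3 of every group, the change was 0.67 (limma adjusted p = 3.6e-06). With all 9 libraries the call was near the threshold and depended on single libraries. It was lost without control replicate 1 (0.68, limma adjusted p = 0.12), control replicate 2 (0.67, adjusted p = 0.11), VLDL-sized replicate 1 (0.77, adjusted p = 0.051) or CHYL-sized replicate 3 (0.50, adjusted p = 0.091).
Slc30a1 was at 64.3, 58.6 and 109 cpm, and the lowest of these lay below control replicate 3 at 63.2 cpm. Its same-number log2 ratios were 1.10, 0.91 and 0.79, and from replicates 1 and 2 alone the change was 1.00 (SE 0.06). With all 9 libraries its log2 fold change was 0.93 (SE 0.30, 95% CI 0.27 to 1.60, limma adjusted p = 0.044), and the call held under 8 of 19 alternatives. Leaving out a single library ended it for control replicate 1 (0.74, limma adjusted p = 0.16), control replicate 2 (0.77, adjusted p = 0.15), VLDL-sized replicates 1 (0.93, adjusted p = 0.058) and 2 (0.93, adjusted p = 0.059), and CHYL-sized replicates 1 (1.03, adjusted p = 0.063) and 3 (0.66, adjusted p = 0.12).

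Mtf1 was at 31.9, 30.6 and 31.2 cpm after CHYL-sized particles, all above control, with a log2 fold change of 0.35 (SE 0.05, 95% CI 0.23 to 0.47, limma adjusted p = 0.0010). Its call and that of Mt1 held under all 19 alternatives.
The importers again did not pass. Slc39a1 was at 162, 168 and 149 cpm, all below the lowest control library at 169 cpm, and 20.9% of genes had groups without overlap in that direction. The log2 fold change was -0.10 (95% CI -0.22 to 0.02, limma adjusted p = 0.19), and with library size as the only scaling it was -0.18 (limma adjusted p = 0.036, with the median of all genes at -0.08 and 29.8% of the genes called higher). Slc39a10 was at 29.5, 30.7 and 22.8 cpm, a log2 fold change of 0.34 (95% CI -0.04 to 0.72, limma adjusted p = 0.18).

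Replicate 3 carried a different level of several of these genes in all 3 groups. In a fit with the group and a term for replicate 3, a comparison chosen after the data had been seen, 28.2% of all genes were called, 14.3% higher and 13.9% lower. Of the 6 genes, Slc30a1 was higher in replicate 3 by 0.78 (SE 0.07), Mt2 by 0.62 (SE 0.06) and Mt1 by 0.30 (SE 0.06) on the log2 scale. Slc39a10 was lower there, at -0.43 (SE 0.06), and all 4 passed the test. Mtf1 (-0.01, limma adjusted p = 0.90) and Slc39a1 (-0.06, limma adjusted p = 0.24) did not. The level of Slc30a1 in replicate 3 over the mean of replicates 1 and 2 was 2.06 in control cells, 1.44 after VLDL-sized and 1.78 after CHYL-sized particles. That of Mt2 was 1.45, 1.43 and 1.75. The labels do not say how replicate 3 differed.

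With the 3 libraries of replicate 3 left out, the errors of Mt1, Mt2 and Slc30a1 shrank and each of the 4 genes remained called for both particles. That fit rests on replicates 1 and 2 of each group alone, which were more alike, so its errors leave out the spread to replicate 3. After VLDL-sized particles, where 43.4% of 12386 genes were then called (22.0% higher and 21.4% lower), the log2 fold change was 0.81 for Mt1, 1.14 for Mt2, 0.42 for Mtf1 and 1.35 for Slc30a1. After CHYL-sized particles, where 33.8% of genes were called (17.4% higher and 16.4% lower), it was 0.48 for Mt1, 0.67 for Mt2, 0.33 for Mtf1 and 1.00 for Slc30a1. Slc39a10 was then called higher after CHYL-sized particles (0.27, limma adjusted p = 0.0093) and not after VLDL-sized particles (0.14, limma adjusted p = 0.12). Slc39a1 passed in neither, at -0.05 (adjusted p = 0.45) and -0.11 (adjusted p = 0.081) for CHYL-sized and VLDL-sized particles.

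The particles were then compared with each other, at the same time and at what the labels give as the same dose. A supplementary legend of the study gives a lower dose for the CHYL-sized particles, so an effect of dose on this comparison cannot be told apart from that of size if the legend holds. With all 9 libraries 0 of the 6 genes passed, and 0 of all genes tested did (0% called by limma-voom). At an unadjusted p under 0.05 limma gave 813 genes, and DESeq2 called 24 and edgeR's quasi-likelihood test 0. The difference, VLDL-sized minus CHYL-sized, was 0.23 for Mt1 on the log2 scale (95% CI -0.06 to 0.52), 0.37 for Mt2 (95% CI -0.14 to 0.88) and 0.25 for Slc30a1 (95% CI -0.37 to 0.86). These intervals allow a difference of either direction. For Mtf1 it was 0.09 (95% CI -0.03 to 0.20), although its libraries did not overlap, a pattern seen for 11.3% of genes. For the importers it was -0.03 (Slc39a1, 95% CI -0.14 to 0.09) and -0.09 (Slc39a10, 95% CI -0.46 to 0.29).

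**Figure D3:**
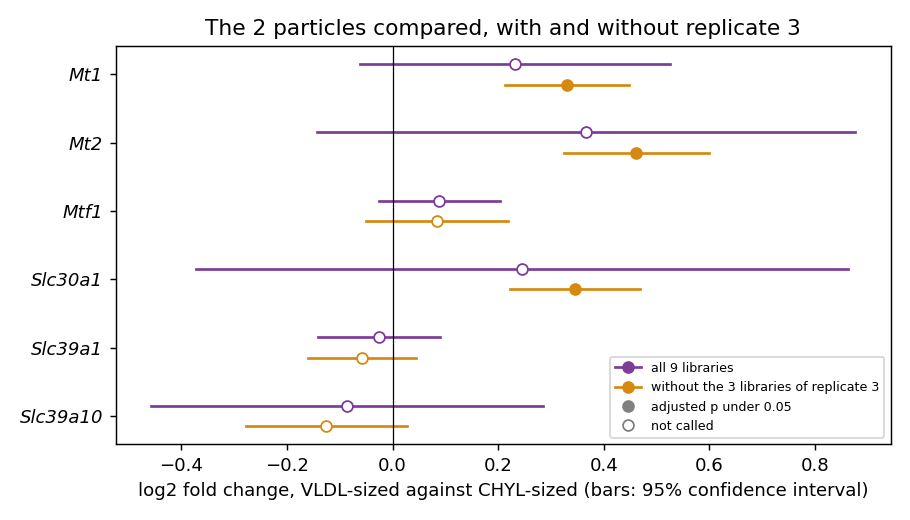
Difference on the log2 scale between cells given VLDL-sized and CHYL-sized particles, for the 6 genes, with all 9 libraries and without the 3 libraries of replicate 3. Bars give the 95% confidence interval, and only Mt1, Mt2 and Slc30a1 without replicate 3 have an adjusted p under 0.05 (filled points).

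Without replicate 3 the difference between the particles passed for Mt1, Mt2 and Slc30a1. Only replicates 1 and 2 of each group remained, which were more alike. The p-values of that fit therefore leave out the spread between them and replicate 3. The levels with VLDL-sized particles were then 1.26-fold (Mt1, log2 0.33, limma adjusted p = 0.0065), 1.38-fold (Mt2, log2 0.46, adjusted p = 0.0020) and 1.27-fold (Slc30a1, log2 0.35, adjusted p = 0.0067) those with CHYL-sized particles. In that fit 2.07% of genes were called, 1.15% higher with VLDL-sized particles and 0.920% lower. Mtf1 (0.08, adjusted p = 0.59), Slc39a1 (-0.06, adjusted p = 0.64) and Slc39a10 (-0.13, adjusted p = 0.45) did not pass. In replicate 3 itself Mt1 stood at 427 cpm with VLDL-sized and 417 cpm with CHYL-sized particles, Slc30a1 at 112 and 109 cpm, and Mt2 at 235 and 208 cpm.

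Between genes, levels were compared per kilobase of annotated exon. In control cells Mt1 stood at 171 ± 10.3 cpm per kilobase (SD, n = 3), Mt2 at 146 ± 32.7, Slc39a1 at 72.4 ± 0.678, Slc30a1 at 7.91 ± 3.59, Slc39a10 at 3.63 ± 0.843 and Mtf1 at 2.76 ± 0.0503. The libraries of Mt1 and Mt2 overlapped, as did those of Slc39a10 and Mtf1, while the other neighbours in this order did not. With VLDL-sized particles Mt1 stood at 308 ± 30.0 and Mt2 at 320 ± 72.1 cpm per kilobase, and with CHYL-sized particles at 266 ± 60.8 and 253 ± 87.8. The order of the metallothioneins depends on the length used, since the exons annotated for Mt1 cover its whole span of 1246 bases. With the shortest transcript of each, 549 bases for Mt1 and 388 for Mt2, the mean of Mt1 was above that of Mt2 in every group, at 389 against 221 cpm per kilobase in control cells and 699 against 484 with VLDL-sized particles. The ratio of Mt2 to Mt1 counts needs no length, and it was 0.349, 0.371 and 0.477 in control libraries, 0.478, 0.428 and 0.551 with VLDL-sized and 0.418, 0.408 and 0.499 with CHYL-sized particles. Those ranges overlap, and in each group replicate 3 had the highest ratio. Set beside the control library of the same number, the ratio was higher in every pair with either particle, a difference that was not tested.

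**Figure D4:**
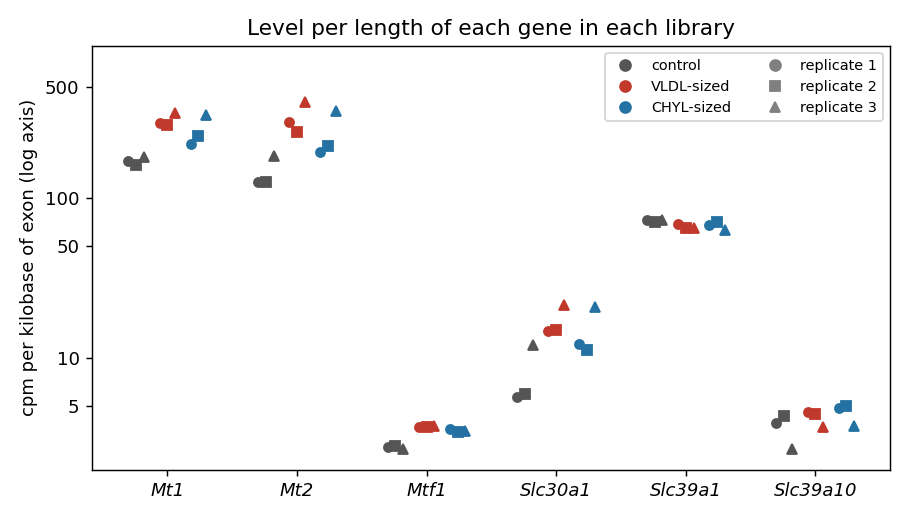
Level per kilobase of annotated exon for each gene in each library, on a log axis, coloured by group, with 1 point per library. Mt1 and Mt2 lie above 100 cpm per kilobase in every library, Slc39a1 lies between 63.2 and 72.8, and Mtf1 and Slc39a10 lie between 2.69 and 5.04.

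The other zinc transporters were examined as whole lists. Of 9 other members of the Slc30 exporter family, 5 were tested, and Slc30a2, Slc30a3, Slc30a8 and Slc30a10 were at or near 0. After VLDL-sized particles 2 of the 5 rose and 1 fell, against 35.6% of all genes called, and after CHYL-sized particles 1 rose, against 25.7%. The gene that rose with both was Slc30a4, which loads zinc into vesicles. It went from 7.99 ± 0.462 cpm in control cells to 13.6 ± 1.53 with VLDL-sized particles (log2 0.76, limma adjusted p = 0.00097) and 11.9 ± 1.78 with CHYL-sized particles (log2 0.57, adjusted p = 0.0090).
With VLDL-sized particles Slc30a9 rose by 0.21 on the log2 scale and Slc30a5, a transporter of the secretory pathway, was at -0.19 (limma adjusted p = 0.016 and 0.017). Slc30a5 lost its call without control replicate 2, VLDL-sized replicate 1 or VLDL-sized replicate 3. Slc30a9 lost it without control replicate 1 or VLDL-sized replicate 2, and with library size as the only scaling (0.12, limma adjusted p = 0.13). With CHYL-sized particles the exporter list kept its count of 1 call under 12 of 19 alternatives, and without VLDL-sized replicate 2, for example, it had 2 calls.

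Of 12 other members of the Slc39 importer family, 10 were tested. After VLDL-sized particles 3 of the 10 rose and 0 fell, against 35.6% of all genes called and 17.8% called higher. After CHYL-sized particles 2 rose and 0 fell, against 25.7% called and 12.7% called higher. Counts this small were not tested against these shares. Slc39a4, the importer known from the intestine, was at 68.5, 69.9 and 83.6 cpm in control cells, 114, 104 and 115 cpm with VLDL-sized and 114, 110 and 115 cpm with CHYL-sized particles. All treated libraries were above all controls, and the log2 fold change was 0.59 (limma adjusted p = 0.00017) and 0.61 (adjusted p = 0.00020).
Slc39a6 rose from 113 ± 7.28 to 151 ± 6.82 cpm (log2 0.42, limma adjusted p = 0.00052) with VLDL-sized and to 141 ± 8.34 cpm (log2 0.32, adjusted p = 0.0040) with CHYL-sized particles. Slc39a7, which releases zinc from the endoplasmic reticulum, rose by 0.23 on the log2 scale with VLDL-sized particles (limma adjusted p = 0.014), a call lost without control replicate 1 or 2 and with library size as the only scaling (0.13, adjusted p = 0.079). The importer list had 4 calls with CHYL-sized particles when replicate 3 was left out. The median log2 fold change of the tested importers was 0.10 with VLDL-sized and 0.09 with CHYL-sized particles, and that of the tested exporters 0.12 and 0.10.

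A list of 5 other genes described as MTF1 targets was mixed. Of the 4 tested, 2 rose and 1 fell after VLDL-sized particles, and 1 rose and 0 fell after CHYL-sized particles, against 35.6% and 25.7% of all genes called. Pgf was too low to test. Gclc, the catalytic subunit of the enzyme that limits glutathione synthesis, was at 140 to 143 cpm in the control libraries, 428 to 457 cpm with VLDL-sized and 411 to 429 cpm with CHYL-sized particles. Its log2 fold change was 1.64 and 1.58 (SE 0.04 in both, limma adjusted p = 5.6e-09 and 1.1e-08), larger than that of any of the 6 genes. Csrp1 was lower with VLDL-sized particles, at -0.24 (limma adjusted p = 0.0083). Ndrg1 was at 0.33 (adjusted p = 0.031) and lost its call in 6 of 19 alternatives, among them without control replicate 1, control replicate 3, VLDL-sized replicate 1 or VLDL-sized replicate 2, and with library size as the only scaling (0.23, adjusted p = 0.12). The median log2 fold change of the 4 was 0.04 with VLDL-sized and -0.05 with CHYL-sized particles. With CHYL-sized particles the list kept its count of 1 call under 14 of 19 alternatives, and without replicate 3, for example, it had 3 calls.

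Among all genes tested, the pattern of each gene over the 9 libraries was set beside that of the other 12636 by Pearson's r of log2 levels, a description over libraries that share groups and experiments. The closest to Mt1 were Slc3a2 (r = 0.991), Klhl21 (0.990) and Dedd2 (0.990), and Mt2 was the 33rd of its neighbours (0.974). The closest to Mt2 were Lsg1 (0.993), Cct4 (0.992) and Ercc6 (0.992), with Mt1 the 46th and Slc30a1 the 108th. Those of Slc30a1 were Ptafr (0.995), Gas2l3 (0.994) and Il7r (0.992). Those of Mtf1 were Ubxn4 (0.997), Serinc1 (0.997) and Hsph1 (0.995). Among the importers, those of Slc39a1 were Jph3 (0.970), Usf1 (0.964) and Car9 (0.961), and those of Slc39a10 were Calcoco1 (0.988), Nom1 (0.983) and Hagh (0.973). Within the 6 genes, Mt2 and Slc30a1 had an r of 0.965, and Slc39a10 had an r of 0.17 or less in size with each of the others except Mtf1 (0.53).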

How the data were processed

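RNA of 9 libraries of RAW 264.7 cells was sequenced for the authors by a service company as 150-bp paired-end reads. The authors quantified transcripts with Salmon 0.14.1 on GENCODE M22 (GRCm38.p6) and summed them to genes with tximport. The deposited values are estimated counts per gene. The methods describe scaling by transcript length, but 58.3% of values above 10 are whole numbers, so the deposited counts appear unscaled. Here a gene was kept if 3 or more libraries held over 10 counts of it, scaled by TMM (edgeR 4.0.16) and tested with limma 3.58.1 (voom) in R 4.3.3, with all 9 libraries in 1 model, 3 comparisons and Benjamini-Hochberg adjustment. Levels are cpm on TMM-adjusted library sizes. In the comparison of VLDL-sized particles with control, same-numbered libraries deviated together (correlations 0.138, 0.132 and 0.293). Only replicate 3 stood clearly apart, since VLDL-sized replicate 2 correlated at 0.116 with control replicate 1. The main fit held no replicate block. DESeq2 1.42.0, edgeR's quasi-likelihood test, other scalings and filters and left-out libraries were alternatives, and the fit was tested on simulated data. Genes named are the 6 genes, list members called in a comparison with control or too low to test, the 3 closest to each by r, and overlapping or cell type marker genes. The genes and lists were chosen with earlier results of these data known. P-values measure the spread between pooled experiments, and in fits without replicate 3 only that between replicates 1 and 2. Depth ranged from 22393893 to 22856792 estimated counts per library, and floors cover counting error only.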

Additional observations from a re-analysis of the deposited data

How the results depend on the processing

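The calls of Mt1 and Mtf1 against control held under all 19 alternatives for both particles, and that of Mt2 for VLDL-sized particles did too. With DESeq2, 2 of the 6 genes were called for CHYL-sized particles, where Mt2 was at 0.80 (adjusted p = 0.052) and Slc30a1 at 0.90 (adjusted p = 0.085). Slc30a1 for CHYL-sized particles also missed the threshold with edgeR (0.90), library size only (0.85), no filter (0.93) and only the groups compared (0.93), with adjusted p from 4.4e-08 to 0.16 over its alternatives. Library size only moved Slc39a1 past it, at -0.22 (VLDL-sized) and -0.18 (CHYL-sized). DESeq2 called 24 genes between the particles. Control levels were 197 cpm per kilobase (Mt1) and 3.22 (Mtf1) with the longest transcript, and, chosen after seeing the data, 389 (Mt1) and 221 (Mt2) with the shortest.

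With the replicate block, genes called were 6058 for VLDL-sized particles, 4949 for CHYL-sized particles and 147 between particles, and with edgeR and the block, added after seeing the data, 4957 for CHYL-sized particles and 163 between particles. Blocked values for VLDL-sized particles were -0.13 (Slc39a1) and 0.24 (Slc39a10) in both tools. The block changed no other call of the 6 genes there. For CHYL-sized particles against control and between particles only replicate 3 clearly paired by number (same-number correlations 0.124, 0.068 and 0.338, and 0.029, 0.117 and 0.357). Of the others, not every library correlated best with its own number. The block there gave 0.33 for Slc39a10 (CHYL-sized) and 0.36 for Mt2 between particles, so 1 of the 6 genes was called between particles, in both tools.

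Leaving out a library, or replicate 3 of every group, gave 3482 to 5380 genes called for VLDL-sized particles, 2320 to 4182 for CHYL-sized particles and 0 to 257 between particles. Of the 6 genes 3 to 4, 2 to 5 and 0 to 3 were called. Between particles, 1 gene was called without VLDL-sized replicate 3, and 1 without CHYL-sized replicate 2. Against control, Slc30a1 ranged from 0.99 to 1.52 for VLDL-sized particles, and for CHYL-sized particles Mt2 ranged from 0.50 to 0.94, Slc30a1 from 0.66 to 1.28 and Slc39a10 from 0.14 to 0.47. Between particles, Mt1 ranged from 0.10 to 0.41, Mt2 from 0.19 to 0.64, Slc30a1 from 0.070 to 0.52, Slc39a1 from -0.073 to 0.01 and Slc39a10 from -0.22 to 0.01. Slc39a1 changed sign without CHYL-sized replicate 2, at 0.011, and Slc39a10 without VLDL-sized replicate 3, at 0.0080. Except where a library was left out, the cause of a changed call was not tested.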

Other observations

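Metallothioneins also bind copper, and a list of 8 copper-handling genes was examined beside the zinc genes. Of the 7 tested, 1 rose and 0 fell with either particle. Of all genes, 35.6% were called and 17.8% called higher with VLDL-sized particles, and 25.7% and 12.7% with CHYL-sized particles. The copper gene that rose was Atp7a, the copper pump that supplies the secretory pathway and exports copper. It was at 91.9, 105 and 82.7 cpm in control libraries, 156, 169 and 141 cpm with VLDL-sized and 150.5, 145 and 129 cpm with CHYL-sized particles. All treated libraries were above all controls, and replicate 3 was the lowest of each group. The log2 fold change was 0.74 (limma adjusted p = 0.00019) and 0.61 (limma adjusted p = 0.0011), and both calls held under 19 of 19 alternatives. The median log2 fold change of the 7 was 0.12 with VLDL-sized and 0.10 with CHYL-sized particles, against 0.00 for all genes tested. Atp7b was too low to test. The copper list had 2 calls with VLDL-sized particles when control replicate 1 was left out.

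Metallothionein genes are known to respond to glucocorticoids, and 6 genes that commonly do were examined. With VLDL-sized particles 1 rose and 2 fell, and with CHYL-sized particles 1 rose and 1 fell, with a median log2 fold change of -0.27 and -0.18. Of all genes tested 17.8% rose and 17.9% fell with VLDL-sized particles, and 12.7% and 13.0% with CHYL-sized particles. Klf9, a transcription factor, went from 20.1 ± 1.81 cpm to 44.6 ± 2.32 with VLDL-sized and 35.2 ± 6.33 with CHYL-sized particles (SD, n = 3), a log2 fold change of 1.15 and 0.80. Tsc22d3 (GILZ) went from 11.2 ± 0.685 cpm to 5.41 ± 0.961 and 5.28 ± 0.779, a log2 fold change of -1.06 and -1.10. Fkbp5 was lower with VLDL-sized particles, at -0.25. All 5 of these calls held under 19 of 19 alternatives. With CHYL-sized particles the list had 5 calls without replicate 3 and 4 without control replicate 3.

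Of the 8 macrophage markers, 1 rose and 5 fell with VLDL-sized particles, and 0 rose and 2 fell with CHYL-sized particles, with a median log2 fold change of -0.16 and -0.12. The shares of all genes that fell were 17.9% and 13.0%.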
